A study of Mus musculus with 6 samples.

Results

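The genes described here are the Wnt ligands, the R-spondins, the Frizzled receptors, the co-receptors Lrp5 and Lrp6, the secreted antagonists of the Sfrp and Dkk families with Wif1, and 5 intracellular members of the same pathway, Ctnnb1, Axin1, Axin2, Lef1 and Tcf7. They were chosen by gene symbol, and the symbols matched 48 of the 53797 genes in the deposited table. RNA was sequenced from MLO-Y4 cells, a mouse cell line with features of osteocytes, the cells embedded in bone matrix. In the LIPUS group, 3 cultures received low-intensity pulsed ultrasound for 20 min at 30 mW/cm2 and 1.5 MHz, and RNA was extracted 30 min later. The 3 Control cultures were not stimulated and shared a plate with LIPUS wells, over transducers that were disconnected, and whether any ultrasound reached them was not tested here. The study's results describe 3 independent runs of the experiment. Its statistics section, however, excepts the RNA sequencing from the experiments that were repeated independently. All cultures were of this single line, grown on collagen-coated plastic in α-MEM with serum, so that the values describe cultured cells and not bone.

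Wnt proteins are secreted, lipid-modified ligands that bind a Frizzled receptor together with Lrp5 or Lrp6 at the cell surface. In the canonical branch, this binding stops the Axin-containing destruction complex from marking β-catenin, the product of Ctnnb1, for degradation, and β-catenin then acts with Lef1 or Tcf7 on target genes. R-spondins strengthen the signal, Sfrp and Wif1 proteins bind Wnt ligands outside the cell, and Dkk1 blocks Lrp5 and Lrp6. The pathway is known for its role in bone formation, and osteocytes are known as a source of its inhibitors.

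Each group had a single value per gene, an FPKM (fragments scaled by transcript length and by sequencing depth) that the authors pooled over the group's 3 libraries. No value of an individual culture could be read, so no spread between replicates, error or p-value is given, and every difference below is a description of these pooled values. The study describes a Control culture that stood apart from the others, and the pooled Control value behind every ratio holds it, since no culture could be left out. Depth per library was not given by the table. A gene was counted as expressed at an FPKM of at least 1 in at least 1 group, which held for 11999 genes. Differences are given as the log2 ratio of LIPUS over Control after 0.1 was added to each FPKM, and a gene was past the fold when the groups differed at least 1.5-fold on that scale. Of the 11999 expressed genes, 18.2% were past the fold in either direction, 8.98% with the higher value in LIPUS and 9.26% with the lower. This share depended on level and was 40.2% at 1 to 5 FPKM, 15.6% at 5 to 20, 6.69% at 20 to 100 and 5.93% above 100.

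The defining markers of the cells were mixed. Pdpn and Gja1, a membrane glycoprotein of early osteocytes and the main gap junction protein of bone cells, were at 402 and 170 FPKM in LIPUS and at 295 and 176 FPKM in Control, and the osteocyte gene Dmp1 was at 7.65 and 3.04 FPKM. Sost, Mepe and Fgf23, genes of mature osteocytes, were listed at 0 in both groups. The 7 osteoblast markers summed to 1244 FPKM in LIPUS and 1548 in Control. Among these, Alpl was at 190 and 293 FPKM, Runx2 at 14.8 and 24.4 and Sp7 at 3.75 and 5.86, all lower in LIPUS by more than 1.5-fold. In their bands, 2.43%, 2.01% and 7.22% of genes lay at least as far below 0. The study, which called genes by q-value, reports that most bone-related genes did not change in level. The differences given here are folds of pooled values without a test. Of the 6 expressed osteoblast markers, 3 were past the fold with the lower value (background 9.26%). The 6 include Bglap, which was counted as expressed only through its LIPUS value and is left out of the count past the fold. The background share depends on level and the markers are few, so no enrichment is read from this count. Col1a1 (731 and 891 FPKM) and Col1a2 (303 and 334) made up most of the sum. Bglap was listed at 0 in Control and at 1.58 FPKM in LIPUS, a low amount from which no fold is read, and Ibsp was at 0 in both. The leukocyte markers summed to 1.96 and 5.55 FPKM, nearly all of it Cd68, with Ptprc, Adgre1 and Itgam at 0. Cd68 was at 1.72 and 5.32 FPKM, past the fold with the lower value in LIPUS, and 0.586% of its band lay as far below 0. Csf1r was at 0.233 and 0.236 FPKM. Epithelial markers were listed at 0 in both groups, and endothelial markers were at 0 but for Pecam1 in Control (0.496 FPKM). The adipocyte list was at 0.193 FPKM in LIPUS and 0.643 in Control, and of the muscle genes Acta1 was at 5.62 and 1.97 FPKM with Myod1 and Myog at 0. Acta1 was past the fold with the higher value in LIPUS, and 0.75% of its band lay as far above 0. The part of these marker differences in the Wnt values was not tested, and in pooled bulk values fewer cells of a kind and less RNA per cell cannot be told apart.

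Of the 48 Wnt genes, 16 were expressed (33.3%), 14 were above 0 in at least 1 group but below 1 FPKM in both, 4 of them in LIPUS alone, and 18 were listed at 0 in both. The expressed genes formed a set from ligand to transcription factor, with 2 ligands, 5 Frizzled receptors, both co-receptors, 3 secreted antagonists and 4 intracellular members. Among the 16 expressed genes, 3 were past the fold (18.8%, against 18.2% of all expressed genes and 14.6% of the protein-coding ones). They were Sfrp4, with the higher value in LIPUS (1 of 16, background 8.98%), and Fzd7 and Sfrp2, with the lower value (2 of 16, background 9.26%). Sfrp2 was counted as expressed only through its Control value. With a minimum of 1 FPKM in both groups, 1 gene was higher and 1 lower of 15 (background 12.7%). The median log2 ratio was -0.10 over the expressed Wnt genes and -0.000469 over all expressed genes. Over the 11 Wnt genes of at least 5 FPKM it was on the other side of 0, at 0.016. Among all 16 expressed Wnt genes the ratio was above 0 for 7 and below 0 for 9, and the 13 genes not past the fold lay between -0.37 and 0.36.

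**Figure D1:**
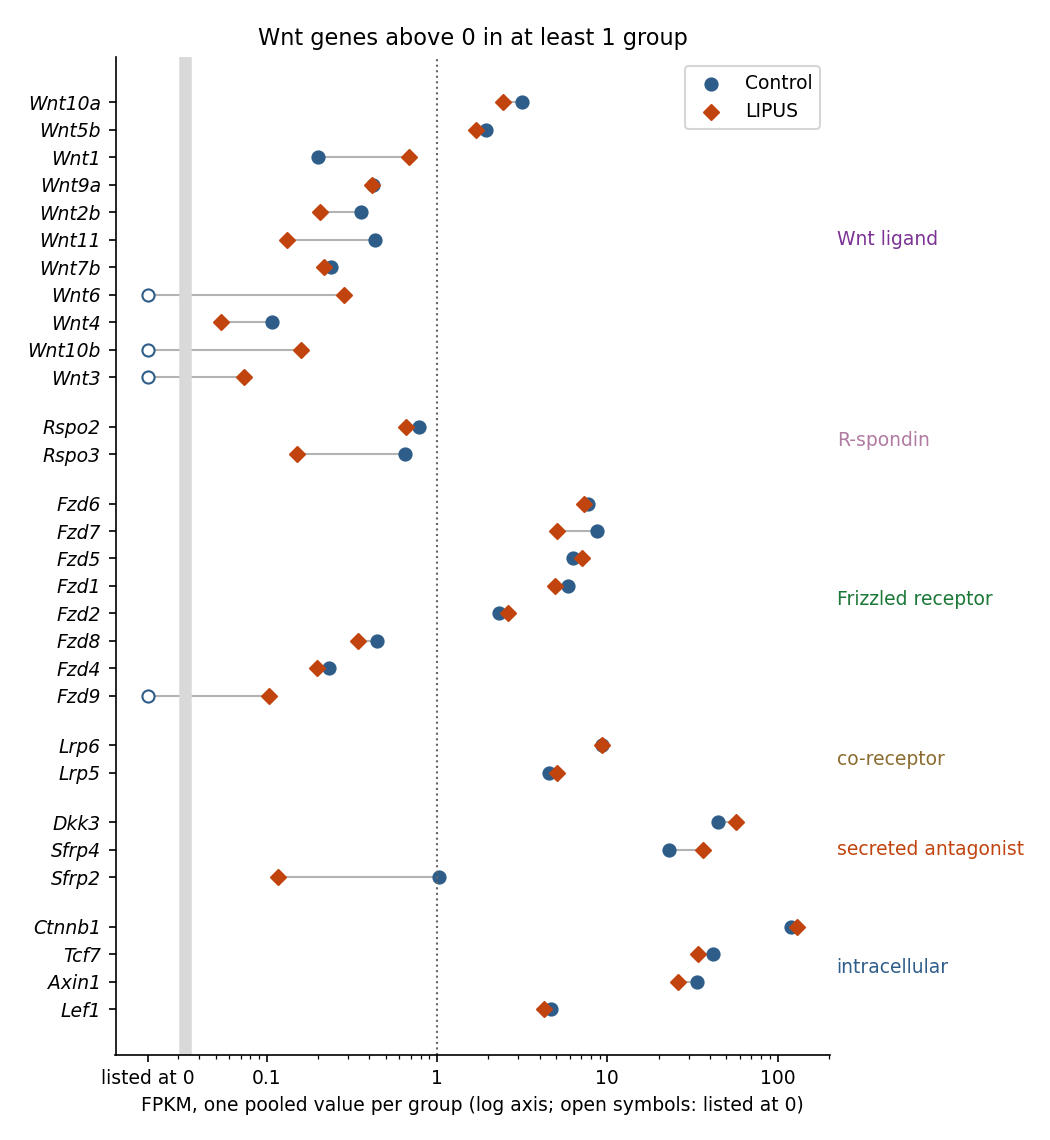
FPKM of the 30 Wnt genes listed above 0 in at least 1 group, by role, on a log axis. Circles are Control and diamonds are LIPUS, each a single pooled value with no error, open circles stand for a value listed at 0, and the dotted line marks 1 FPKM. Dkk3, Sfrp4 and the intracellular members other than Lef1 have the highest values, and nearly all ligands lie left of the line.

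Of the 19 Wnt ligands, only Wnt10a and Wnt5b reached 1 FPKM. Wnt10a, a ligand known to favour bone over fat formation through β-catenin, was at 2.45 FPKM in LIPUS and 3.15 in Control (log2 ratio -0.35). Wnt5b, a ligand mostly known for signalling without β-catenin, was at 1.68 and 1.95 FPKM (log2 ratio -0.20). Both ligands had the lower value in LIPUS, and at their level 29.6% and 38.1% of the 3025 genes of 1 to 5 FPKM were at least as far below 0.

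The other ligands were at the lower end of what the table resolves. To place them, each FPKM was multiplied by the exonic length in kb, a product that scales with the number of fragments. Among single-exon genes of at least 500 bp listed above 0, the 5% quantile of this product was 0.227 in LIPUS (1335 genes) and 0.204 in Control (1319 genes), and it is called the smallest step here. Whether it stands for a single fragment was not tested. Wnt10a was at 26.6 smallest steps in LIPUS and 38.2 in Control, and Wnt5b at 19.6 and 25.3.

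A further 9 ligands lay above 0, with a higher group value between 0.0733 and 0.679 FPKM. Wnt1, a canonical ligand whose loss is known to cause brittle bone, was at 0.679 FPKM in LIPUS and 0.200 in Control, or 7.10 and 2.34 smallest steps. Wnt11, known for non-canonical signalling, went the other way in level, with 0.131 FPKM in LIPUS and 0.429 in Control, or 2.39 and 8.71 steps. Wnt9a was at 0.412 and 0.422 FPKM, Wnt2b at 0.206 and 0.358, Wnt7b at 0.217 and 0.239 and Wnt4 at 0.0540 and 0.107 FPKM. Wnt6, Wnt10b and Wnt3 were listed at 0 in Control and at 0.284, 0.159 and 0.0733 FPKM in LIPUS, which is 2.73, 2.38 and 0.991 smallest steps. Differences of this size rest on few steps and no fold is read from them. Wnt2, Wnt3a, Wnt5a, Wnt7a, Wnt8a, Wnt8b, Wnt9b and Wnt16 were listed at 0 in both groups. Summed over all 19 ligands, the level was 6.34 FPKM in LIPUS and 6.85 in Control (log2 ratio of the sums -0.11), of which Wnt10a gave 38.6% and 46.0%.

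Several Wnt genes lie side by side on the mouse chromosomes (GRCm38, GENCODE M21), and 4 pairs were less than 100 kb apart. Wnt6 ends 6.2 kb before Wnt10a on the same strand of chromosome 1, and the expressed gene of this pair, Wnt10a, occupies bases 74791516 to 74804179. Wnt10b and Wnt1 start away from each other on chromosome 15 with a gap of 11.7 kb, and both were above 0 in LIPUS while Wnt1 alone was above 0 in Control. On chromosome 11, Wnt3a and Wnt9a are 16.2 kb apart, and so are Wnt9b and Wnt3 with 24.3 kb, in each case on opposite strands. In each of these chromosome 11 pairs 1 gene was at 0 in both groups, Wnt3a and Wnt9b, and its neighbour was above 0 in at least 1 group.

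None of the 3 R-spondins, secreted ligands of the Lgr receptors, reached 1 FPKM. Rspo2 was at 0.656 FPKM in LIPUS and 0.782 in Control, or 14.8 and 19.6 smallest steps. Rspo3 was at 0.150 and 0.645 FPKM, or 2.03 and 9.78 steps, and Rspo1 was listed at 0 in both groups. The sum over the R-spondins was 0.806 FPKM in LIPUS and 1.43 in Control, and most of this difference lay in Rspo3 and its few steps.

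Of the 10 Frizzled receptors, 5 were expressed, with Fzd2 below the other 4 in both groups. In Control the order of FPKM was Fzd7 (8.70), Fzd6 (7.66), Fzd5 (6.27), Fzd1 (5.89) and Fzd2 (2.29). In LIPUS the order was Fzd6 (7.32), Fzd5 (7.09), Fzd7 (5.05), Fzd1 (4.94) and Fzd2 (2.61). Fzd7 therefore led the family in Control, with 27.6% of its summed FPKM, and was behind Fzd6 and Fzd5 in LIPUS, where Fzd6 led with 26.5%. Without values per culture it cannot be said which neighbours in these orders differ beyond their spread.

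Fzd7 lies on the plus strand of chromosome 1 at bases 59482424 to 59486955. Its log2 ratio was -0.77, a 1.71-fold lower value in LIPUS, and it stood on 101 smallest steps in LIPUS and 193 in Control. Of the 4268 genes whose higher value was between 5 and 20 FPKM, 4.59% had a ratio at least as far below 0, and the middle 95% of these genes lay between -0.94 and 0.95. Fzd7 thus lay inside that range. Among all expressed genes ordered from the highest FPKM, it ranked 7134 in Control and 8573 in LIPUS.

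The other Frizzled receptors differed less between the groups. The log2 ratios were -0.06 for Fzd6, 0.17 for Fzd5, -0.25 for Fzd1 and 0.18 for Fzd2, so that values on both sides of 0 stood beside that of Fzd7. Fzd5 shares 17.8% of its exonic bases with the gene Gm38058 on the opposite strand, itself at 1.34 FPKM in LIPUS and 2.09 in Control, and reads of the pair may have been mixed, since it was not stated whether strand was used in counting. Fzd8 was at 0.341 and 0.444 FPKM and Fzd4 at 0.198 and 0.231, while Fzd9 was at 0.102 FPKM in LIPUS and listed at 0 in Control. Fzd3 and Fzd10 were listed at 0 in both groups. The summed FPKM of the family was 27.7 in LIPUS and 31.5 in Control (log2 ratio of the sums -0.19). Most of the difference in the sum lay in Fzd7, whose FPKM in LIPUS minus that in Control was -3.65, while the same difference was -0.956 for Fzd1, -0.334 for Fzd6, 0.314 for Fzd2 and 0.812 for Fzd5.

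The co-receptors were close in the 2 groups. Lrp6 was at 9.36 FPKM in LIPUS and 9.25 in Control (log2 ratio 0.02, and -0.03 after rescaling to TPM), and Lrp5, whose gain and loss of function are known to change human bone mass, at 5.08 and 4.55 FPKM (log2 ratio 0.15). Their sum was 14.4 and 13.8 FPKM. Lrp6 made up 64.8% of it in LIPUS and 67.0% in Control.

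Of the 9 secreted antagonists, Dkk3, Sfrp4 and Sfrp2 were expressed, the last of them barely, and Dkk1, Dkk2, Dkk4, Sfrp1, Sfrp5 and Wif1 were listed at 0 in both groups. Dkk3 was the highest secreted Wnt gene, at 57.3 FPKM in LIPUS and 44.5 in Control (log2 ratio 0.36), and 9.19% of the 3678 genes of 20 to 100 FPKM lay at least as far above 0. Unlike Dkk1, Dkk3 is not known to bind Lrp5 or Lrp6, and it is kept here by the name of its family.

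Sfrp4 encodes a secreted Frizzled-related protein that binds Wnt ligands, and its loss is known to thin cortical bone. It lies on the plus strand of chromosome 13 at bases 19623104 to 19632994, and was at 36.7 FPKM in LIPUS and 23.0 in Control. The log2 ratio was 0.67, a 1.59-fold higher value in LIPUS. Of the 3678 genes in its band, 2.45% lay at least as far above 0, so that Sfrp4 was just beyond the middle 95% of that band (-0.67 to 0.65). It stood on 674 and 472 smallest steps, and its rank among the expressed genes was 2647 in LIPUS and 3988 in Control.

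Sfrp2, a relative of Sfrp4, was at 0.116 FPKM in LIPUS and 1.02 in Control, a value just above the minimum for an expressed gene. The log2 ratio of -2.38 was the farthest from 0 among the expressed Wnt genes, but it rested on 1.10 smallest steps in LIPUS and 10.8 in Control. The fold depended on the amount added to each FPKM, with 5.20-fold lower at 0.1, 1.81-fold at 1 and 8.82-fold with nothing added. Among the 3025 genes of 1 to 5 FPKM, 3.97% were at least as far below 0, and the middle 95% ran from -3.66 to 3.74. The gene lies on the plus strand of chromosome 3 at bases 83766321 to 83774316. It shares 16.1% of its exonic bases with Gm26771 on the opposite strand, which was listed at 0 in both groups.

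**Figure D2:**
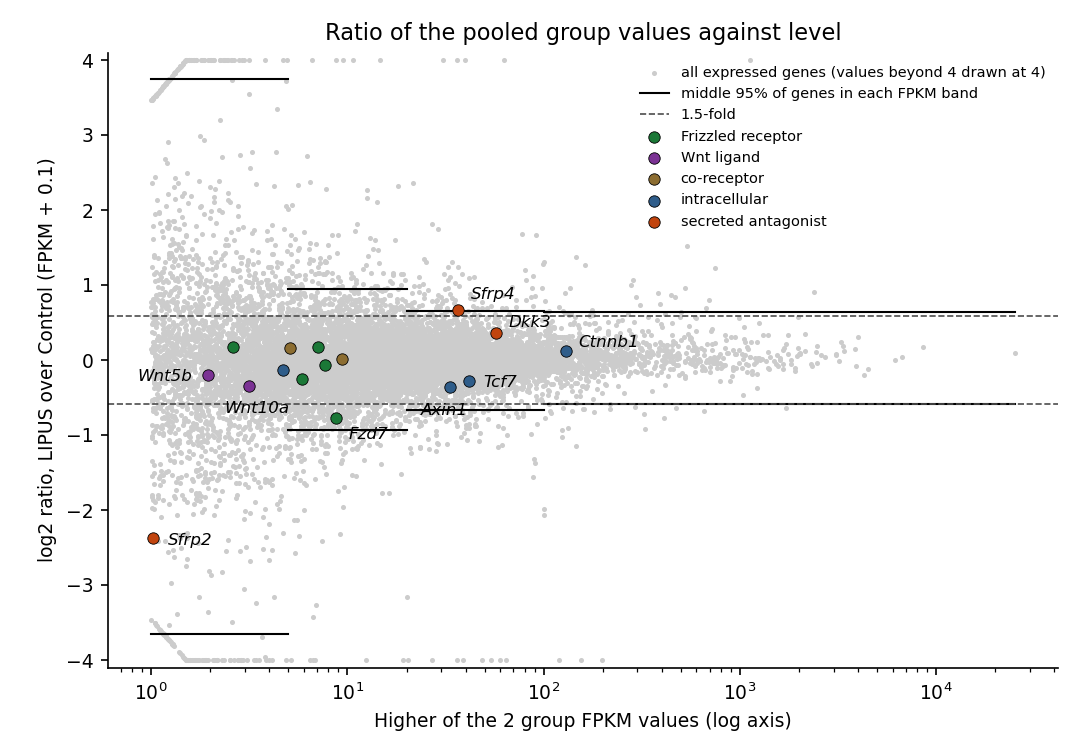
Log2 ratio of LIPUS over Control (FPKM + 0.1) against the higher group FPKM on a log axis for the 11999 expressed genes in grey, with the 16 expressed Wnt genes coloured by role. Solid lines bound the middle 95% of genes in each band of FPKM and dashed lines mark 1.5-fold. Sfrp4 (0.67) lies just above the solid line of its band, and Fzd7 (-0.77) and Sfrp2 (-2.38) lie inside theirs.

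The antagonists summed to 94.1 FPKM in LIPUS and 68.6 in Control, a log2 ratio of the sums of 0.46. Dkk3 made up 60.9% of the sum in LIPUS and 65.0% in Control. Set against the ligands, the summed FPKM of the antagonists was 14.8 times that of the ligands in LIPUS and 10.0 times in Control. Without Dkk3 it was 5.80 times and 3.51 times. These sums weigh each gene by its RNA level alone and say nothing of protein or of which ligand an antagonist binds.

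**Figure D3:**
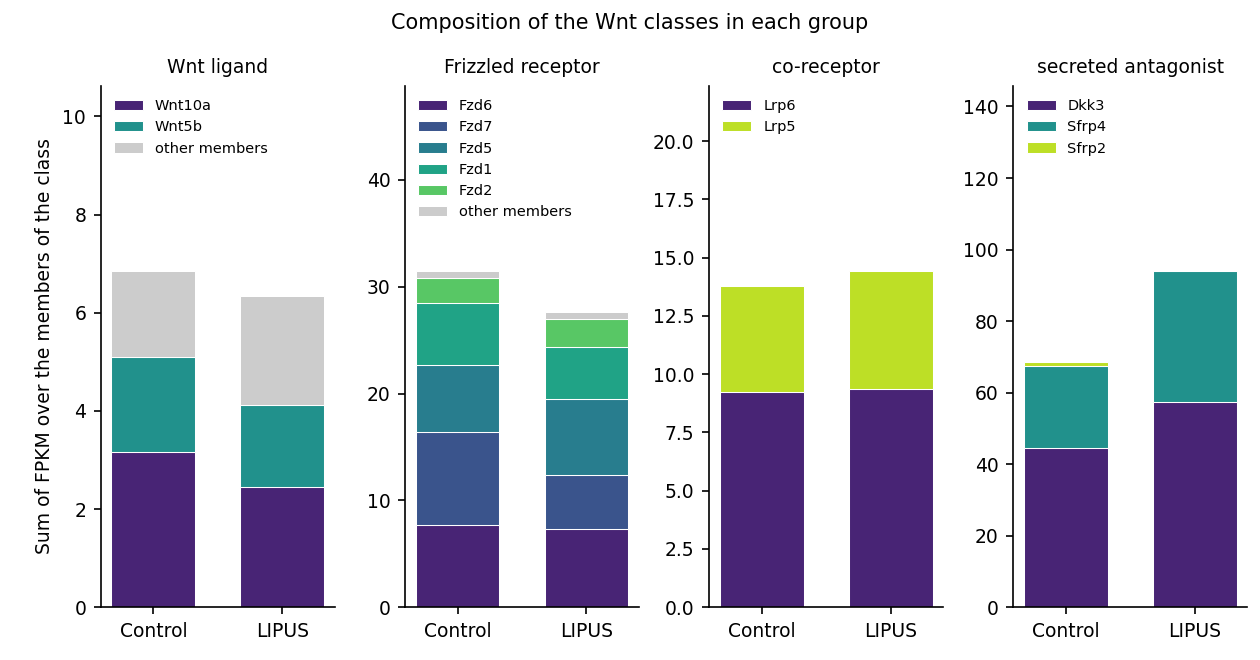
Summed FPKM of Wnt ligands, Frizzled receptors, co-receptors and secreted antagonists in Control and LIPUS, with the share of each expressed gene stacked in colour and of the remaining members in grey. Each panel has its own axis that starts at 0 and there are no error bars, since each group has a single pooled value. The antagonist bar is taller in LIPUS (94.1 against 68.6) and the Fzd7 segment is smaller (5.05 against 8.70).

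Inside the cell, Ctnnb1 was the highest of all 48 genes, with 130 FPKM in LIPUS and 120.0 in Control (log2 ratio 0.12), at ranks 724 and 783 among the expressed genes. The gene lies on chromosome 9 at bases 120929216 to 120960507, and 14.6% of its exonic bases are shared with Ulk4 on the opposite strand, which was at 15.1 and 16.1 FPKM. Tcf7, a transcription factor that binds β-catenin, was at 34.3 and 41.6 FPKM (log2 ratio -0.28). Its relative Lef1 was lower in level, at 4.23 and 4.67 FPKM (log2 ratio -0.14). Axin1, the scaffold of the destruction complex, was at 25.9 and 33.4 FPKM (log2 ratio -0.37), and 8.65% of the genes in its band lay at least as far below 0. Axin1 was the nearest to the fold among the genes not past it on the lower side, and Dkk3 on the upper. Axin2, the scaffold that is itself a target of β-catenin, was listed at 0 in both groups. The summed FPKM of these genes was 194.5 in LIPUS and 199.7 in Control, of which Ctnnb1 gave 66.9% and 60.1%.

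A list of 61 other genes of the pathway was read in the same way. Of these, 39 were expressed and 12 were listed at 0 in both groups. Past the fold were 5 of the 39 (12.8%, against 18.2% of all expressed genes), 2 with the higher and 3 with the lower value in LIPUS. Of the 2 with the higher value, Porcn was counted as expressed only through its LIPUS value. The median log2 ratio was -0.05, with 15 genes above and 24 below 0. The highest levels were those of Mesd, the chaperone of Lrp5 and Lrp6 (113 FPKM in LIPUS and 92.4 in Control), the casein kinases Csnk1a1 (84.5 and 85.0), Csnk1e (57.4 and 61.1) and Csnk1d (55.0 and 56.8), the Wnt receptor Ryk (75.3 and 80.1) and Wls, the carrier that takes Wnt ligands to the cell surface (65.7 and 60.5).

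The gene of this list past the fold at the highest level with the lower value in LIPUS was Tle3, a Groucho-type corepressor that binds Tcf and Lef factors, at 26.7 and 42.5 FPKM (log2 ratio -0.67). Lgr6, a receptor for R-spondins, was at 10.4 FPKM in LIPUS and 23.3 in Control, a log2 ratio of -1.15, and 0.544% of the 3678 genes of its band lay at least as far below 0, against 2.53% for Tle3 in the same band. Prickle1, of the planar polarity branch, was at 2.70 and 5.01 FPKM (log2 ratio -0.87, with 3.37% of its band as far below 0). With the higher value in LIPUS, Porcn, the enzyme that attaches the lipid to Wnt ligands, was at 2.46 and 0.787 FPKM (log2 ratio 1.53). This rested on 32.5 and 11.6 smallest steps, and 6.94% of the genes of 1 to 5 FPKM lay at least as far above 0. Bcl9, a cofactor of β-catenin, was at 5.22 and 3.41 FPKM (log2 ratio 0.60), just past the fold, with 6.98% of its band as far above 0, and it did not reach the fold after rescaling to TPM (0.56) or with 1 added to each FPKM (0.49).

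Other genes of the R-spondin branch were picked after their values had been seen, so that no direction is read from them as a group. Lgr4, the other expressed R-spondin receptor, was at 7.48 FPKM in LIPUS and 11.2 in Control (log2 ratio -0.58), just short of the fold, which it passed after rescaling to TPM (-0.63) and with nothing added to the FPKM (-0.59). Lgr5 was listed at 0 in LIPUS and at 0.234 FPKM in Control. Znrf3, a ubiquitin ligase that removes Frizzled receptors and is held back by R-spondins, was at 3.28 and 4.44 FPKM (log2 ratio -0.43). Rnf43, the partner of Znrf3, was at 0.0740 FPKM in LIPUS and 0 in Control, and Rspo1 and Rspo4 were listed at 0 in both groups.

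Of 20 genes known to be induced by β-catenin in other cell types, 11 were expressed and 4 were listed at 0 in both groups. A single gene was past the fold (9.09%, against 18.2% of all expressed genes), Jag1, a Notch ligand, at 7.02 FPKM in LIPUS and 4.15 in Control (log2 ratio 0.75, with 4.55% of its band as far above 0). The median log2 ratio of the 11 genes was 0.03. The highest in level were Wisp2 (283 and 277 FPKM), Myc (237 and 209), Cd44 (212 and 200.2), Gja1 (170 and 176), Ccnd1 (99.4 and 110.0) and Wisp1 (32.4 and 42.2). Among all expressed genes the share past the fold was 5.93% above 100 FPKM, the band of Wisp2, Myc, Cd44, Gja1 and Ccnd1. It was 15.6% at 5 to 20 FPKM, the band of Jag1, so that 9.09% is not read as low. The 4 genes at 0 in both groups were Nkd1, Nkd2, Sp5 and Tnfrsf19. The other 5 genes lay below 1 FPKM, Notum in both groups at 0.725 and 0.647 FPKM, Apcdd1 and Rnf43 above 0 in LIPUS alone and Lgr5 and Fgf18 above 0 in Control alone.

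**Figure D4:**
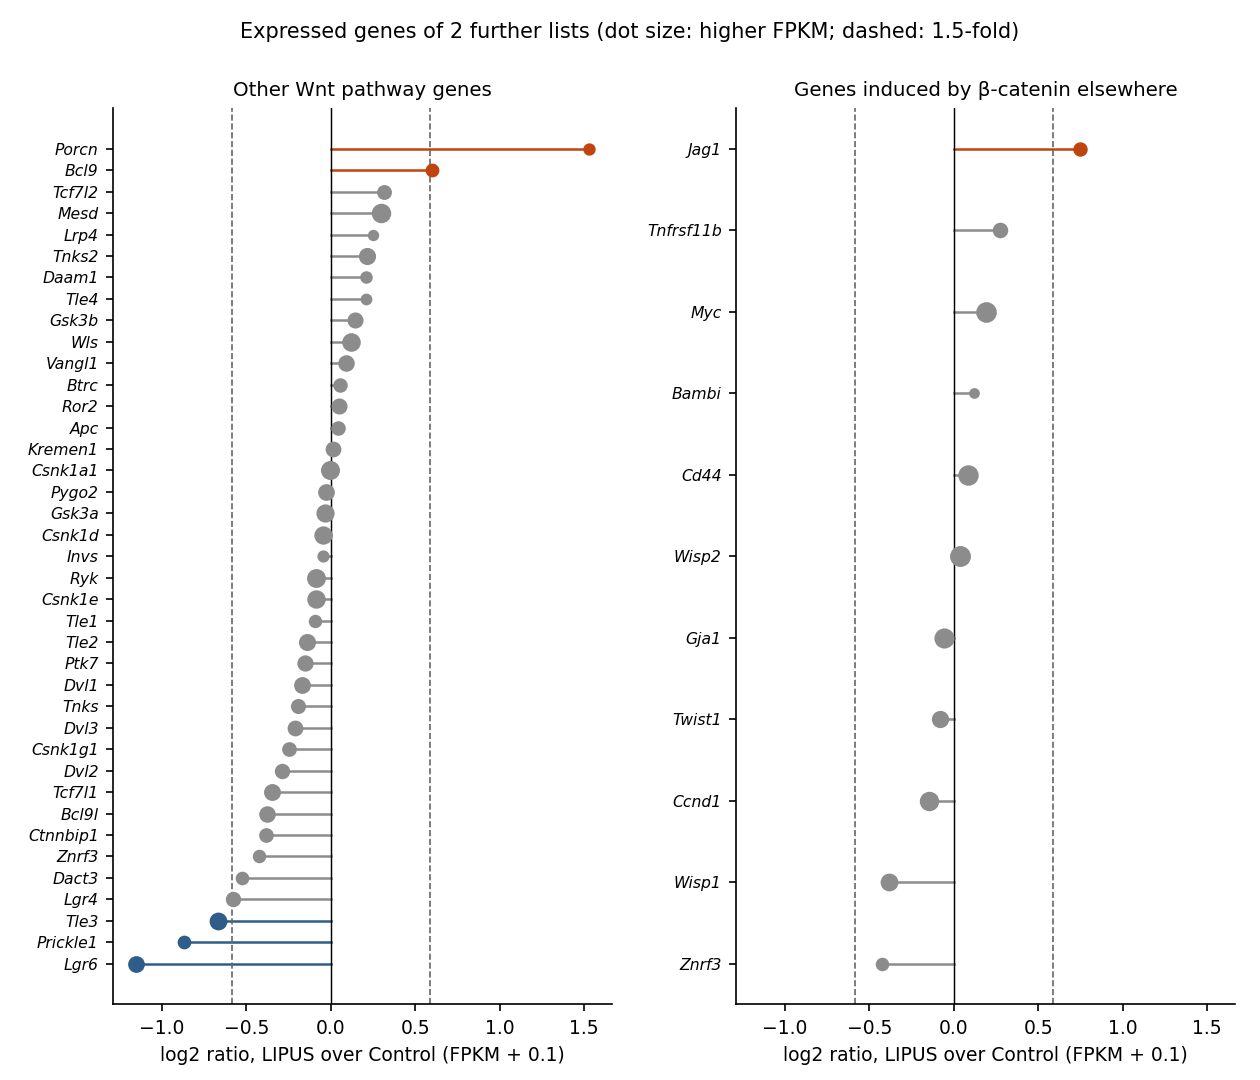
Log2 ratio of LIPUS over Control (FPKM + 0.1) for the 39 expressed genes of the wider pathway list and the 11 expressed genes of the target list, with Znrf3 in both. Dot area grows with the higher FPKM, dashed lines mark 1.5-fold, and coloured dots lie past it. Most genes lie near 0, with Porcn (1.53) and Lgr6 (-1.15) at the ends of the pathway list and Jag1 (0.75) at the top of the target list.

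The promoters of the Wnt genes were read from RefSeq sequence (GRCm38.p6) over the 250 bases before each start in RefSeq, which can differ from the GENCODE positions given above. In the set of promoter sequences used here, 31 of the 48 genes had at least 1 entry, 39 promoters in all. Wnt promoters were rich in CG dinucleotides, with a median of 22 in 250 bases, against 6 in all 32851 promoters and 10 in those of protein-coding genes. The median was 15 over the 15 promoters of 8 expressed genes, of which Lef1 and Wnt5b have several, 28 over the 11 promoters of 10 genes above 0 but below 1 FPKM and 21 over the 13 promoters of as many genes listed at 0. With 1 promoter per gene, the entry with the most CG, these medians were 24.5, 32 and 21, so that the order of the expressed genes and those at 0 depends on how starts are counted. The following show both genes past the fold with an entry, and Wnt3a, the ligand with the most CG among the 13 promoters of genes at 0 in both groups, where the count ran from 5 to 41. They are written 5′ to 3′ on the strand of the gene with each CG in capitals. The Fzd7 promoter (chr1:59481897-59482146, plus strand) holds 17, that of Sfrp2 (chr3:83766071-83766320, plus strand) 16 and that of Wnt3a (chr11:59290752-59291001, minus strand) 41.
Fzd7: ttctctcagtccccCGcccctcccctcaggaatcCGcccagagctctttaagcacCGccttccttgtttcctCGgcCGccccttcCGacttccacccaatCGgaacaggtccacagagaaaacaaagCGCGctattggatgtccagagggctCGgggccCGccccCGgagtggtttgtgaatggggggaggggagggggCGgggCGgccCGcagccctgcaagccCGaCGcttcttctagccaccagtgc
Sfrp2: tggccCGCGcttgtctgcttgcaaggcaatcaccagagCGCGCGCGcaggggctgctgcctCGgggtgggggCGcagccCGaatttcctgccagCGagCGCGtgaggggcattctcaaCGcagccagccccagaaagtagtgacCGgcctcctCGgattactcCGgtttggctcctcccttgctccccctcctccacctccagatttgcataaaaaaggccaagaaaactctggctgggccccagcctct
Wnt3a: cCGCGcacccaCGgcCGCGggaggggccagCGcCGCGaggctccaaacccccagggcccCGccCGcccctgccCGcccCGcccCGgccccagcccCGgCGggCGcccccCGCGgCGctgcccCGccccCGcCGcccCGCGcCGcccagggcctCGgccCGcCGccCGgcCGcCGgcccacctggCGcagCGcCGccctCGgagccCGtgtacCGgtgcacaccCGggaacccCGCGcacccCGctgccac

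The same promoters were searched on both strands for CTTTGAA and CTTTGAT, the letters that Tcf and Lef factors are known to prefer. A match was found in 3 of the 39 Wnt promoters (7.69%), against 7.48% of all promoters and 6.73% of those of protein-coding genes, so that the share was close to that of promoters in general. The promoters with a match were those of Wnt5b (chr6:119449387-119449636, minus strand), 1 of its 3 entries, Dkk1 (chr19:30549497-30549746, minus strand) and Wnt11 (chr7:98834862-98835111, plus strand), 1 of its 2 entries. The match starts 71, 117 and 51 bases before the RefSeq start that its entry belongs to. For Wnt5b that start is an internal one, since the entry lies within the gene's GENCODE span (119432531 to 119544347). The Wnt5b entry next to the GENCODE start (chr6:119544348-119544597) held no match. The Dkk1 entry overlaps the gene's GENCODE span (30545863 to 30549665). The 3 genes with a match differ in level, Wnt5b being expressed, Wnt11 below 1 FPKM and Dkk1 at 0. The match is in capitals with 15 bases on each side, on the strand of the gene, and in Wnt11 it reads as the reverse complement of CTTTGAT.
Wnt5b: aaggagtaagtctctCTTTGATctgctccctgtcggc
Dkk1: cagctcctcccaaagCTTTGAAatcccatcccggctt
Wnt11: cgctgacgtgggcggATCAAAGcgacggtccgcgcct
A match is a run of letters and not a bound site. The promoters of Fzd7, Sfrp2, Ctnnb1, Lef1, Tcf7 and Axin2 held neither run of letters in this window.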

How the data were processed

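Reads were trimmed by the authors (Trimmomatic 0.36) and mapped to the mouse genome build GRCm38 by TopHat 2.1.0, which calls Bowtie 2.2.6.0, with Ensembl transcripts. FPKM came from Cufflinks, for which the submitters' processing notes name version 2.1.1 and the methods another. The FPKM values deposited by the authors are a single value for LIPUS and a single value for Control, pooled over the 3 libraries of each group. The remaining columns of the table hold the authors' own comparison (fold change, test statistic, p-value, q-value and calls) and were not used. Libraries were stranded, and whether counting used strand was not stated.

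From the FPKM, log2((LIPUS + 0.1)/(Control + 0.1)) was computed for all genes with an FPKM of at least 1 in a group, and 1.5-fold was the limit for counting. Every expressed member was named, list genes where past the fold, and otherwise up to 6 per list by FPKM. Lgr4, Lgr5, Znrf3, Rnf43, Rspo4, Nkd1, Nkd2, Sp5, Tnfrsf19, Notum, Apcdd1 and Fgf18 were named after their values were seen. The members and lists were chosen with earlier results of these data known. Positions and exonic lengths came from GENCODE M21, which held 99.66% of the genes by identifier, and promoters from RefSeq. Promoter entries were not used here for Wnt10a, Wnt7b, Wnt5a, Wnt8a, Rspo2, Rspo3, Fzd6, Fzd2, Fzd8, Fzd3, Lrp6, Lrp5, Dkk3, Sfrp4, Dkk4, Sfrp1 and Axin1. Python 3.11.15, numpy 2.4.6, pandas 2.3.3 and matplotlib 3.10.9 were used, and the counting step was tested on simulated data. Alternatives covered the added value, the minimum FPKM, the fold, rescaling to TPM, centring and the background. The sums without Dkk3 and the count of 1 promoter per gene were added after seeing the data.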

Additional observations from a re-analysis of the deposited data

How the results depend on the processing

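The count of 3 Wnt genes past the fold was the same with 1 added to each FPKM in place of 0.1, with nothing added, after rescaling to TPM, which sets the same total for each group, and after centring on the median of all genes. The background share was 13.5% with 1 added, and 14.6% over protein-coding genes alone, a background chosen after seeing the data. The count was 2 of 11 with a minimum FPKM of 5 (background 10.8%), 1 higher and 1 lower of 15 with a minimum of 1 in both groups (12.7%) and 2 higher and 3 lower of 19 with a minimum of 0.5 (22.8%). It was 10 of 30 with no minimum, 6 higher and 4 lower (background 32.1%). At a fold of 2 it was 1 of 16, with the lower value (8.02%). At a log2 limit of 0.32 it was 6 of 16, 2 higher and 4 lower (36.7%). The median log2 ratio of the Wnt genes was 0.016 with a minimum FPKM of 5, where the 11 genes left out Wnt10a, Wnt5b, Fzd2, Lef1 and Sfrp2. Rescaling to TPM moved the median of all genes to -0.05. Of the 23 gene values tried under 3 settings, only that of Lrp6 changed sign, from 0.02 to -0.03 after rescaling to TPM. Sfrp2 was at -0.86 with 1 added and at -3.14 with nothing added, and Bcl9 was short of the fold at 0.49 with 1 added and at 0.56 after rescaling to TPM. Lgr4, added after seeing the data, passed the fold after rescaling to TPM and with nothing added. No paired analysis was possible because the table holds a pooled value per group and none per library, and leaving out a replicate could not be run for the same reason. Sfrp2 and most Wnt genes below 1 FPKM rest on few smallest steps.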
